A study of Mus musculus with 8 samples.

Results

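Interferons are sensed through paired receptor chains, and the answer of a cell is set by a small set of transcription factors. The 9 genes described here are the receptor chains *Ifnar1* and *Ifnar2* of the type I interferon receptor, the chains *Ifngr1* and *Ifngr2* of the interferon-γ receptor, and the transcription factors *Stat2*, *Irf9*, *Irf1*, *Irf7* and *Irf8*. They were chosen by name, and all 9 were among the 16999 genes measured in every library. Their unique molecular identifiers (UMIs, one per captured transcript) were counted in 29631 brain cells of 24-month-old male mice. A separate table of oligodendrocytes held 15604 cells, of which 15382 were also among these brain cells.

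The cells came from 8 libraries of 10× 3′ single-cell RNA sequencing. Wild-type mice (strain C57BL/6 by the labels, C57BL/6J in the methods) gave 2 libraries of gray matter, from the prefrontal cortex, and 2 of white matter, from the corpus callosum, optic tract and medial lemniscus. Mice labelled *Rag1* KO, written here as *Rag1*-/-, gave 1 gray and 3 white matter libraries. These mice lack a recombinase that B and T cells need to mature. The labels give their strain as NOD.129S7(B6)-Rag-1tm1Mom/J, whereas the study's methods describe the same allele on a C57BL/6J background. By the sample table that came with the paper, each wild-type library pooled several mice, and gray and white matter libraries with the same number came from the same pool. *Rag1*-/- gray and white matter library 1 shared a pool as well, and *Rag1*-/- white matter libraries 2 and 3 were a single mouse each. The protocols speak instead of a pair of tissue samples joined in each library, so the number of mice behind a library is uncertain. All cells had been dissociated with actinomycin D, which stops transcription, and sorted as live cells. The libraries held 584 to 7631 cells and 4645054 to 57899352 UMIs, with 2735825 to 43816134 UMIs in oligodendrocytes. No library pair shared more than 15 cell barcodes. *Rag1*, the targeted gene, had 0 and 3 UMIs in wild-type gray and 0 and 24 in wild-type white matter libraries, and 37 in the *Rag1*-/- gray and 108, 60 and 96 in the *Rag1*-/- white matter libraries. UMIs were thus counted in every *Rag1*-/- library, and since reads came from the 3′ end of transcripts they do not check the deletion. *Cd3e*, which codes for a chain of the T cell receptor complex, had 17 to 1812 UMIs in wild-type libraries and 0 in the *Rag1*-/- gray matter library and 132, 0 and 0 in *Rag1*-/- white matter libraries 1 to 3. *Cd3d*, for another chain, had 39 to 1874 UMIs in wild-type libraries. It had 0 in the *Rag1*-/- gray matter library and 33, 0 and 11 in the *Rag1*-/- white matter libraries. Genotype coincided with the experiment, the version of the counting software and the list of counted genes. By the labels, it coincided with the strain as well. None of these can be told apart from genotype. Within *Rag1*-/- the software version also differed, between the libraries numbered 1 and white matter libraries 2 and 3. The sample titles place the libraries numbered 1 in batch 1 of their genotype and those numbered 2 and 3 in batch 2. In wild-type, mouse pool and batch thus coincide and cannot be told apart.

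Type I interferons bind IFNAR1 and IFNAR2, whose kinases activate transcription factors of the STAT family. STAT2 and IRF9 then act together on the interferon-stimulated response element (ISRE) of target genes. Interferon-γ binds IFNGR1 and IFNGR2 and acts through the γ-activated site (GAS), for which *Irf1* is a classical target. IRF7 amplifies the type I interferon response, and IRF8 is best known as a factor that microglia and other myeloid cells need. In brain tissue, microglia carry much of this machinery, and other immune cells and endothelial cells carry parts of it. Oligodendrocytes, the cells that form myelin, also carry receptors for both kinds of interferon.

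The windows of 250 bases before the transcription start in RefSeq (GRCm38.p6) are shown for the letters of the ISRE and the GAS that they hold. The ISRE was searched as GAAA, any 2 bases and GAAA again, on both strands, and the GAS as TTCNNNGAA, which reads the same on both strands. Capitals mark a match. The first 4 windows are those of the members with a match, and the last is that of *Irf7*, which had none.
Stat2, chr10:128270248-128270497, plus strand: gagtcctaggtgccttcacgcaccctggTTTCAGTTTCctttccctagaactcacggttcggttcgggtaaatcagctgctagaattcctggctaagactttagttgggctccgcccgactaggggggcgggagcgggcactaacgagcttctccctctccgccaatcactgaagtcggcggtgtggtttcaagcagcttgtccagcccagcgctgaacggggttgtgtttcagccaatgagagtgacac
Irf1, chr11:53769764-53770013, plus strand: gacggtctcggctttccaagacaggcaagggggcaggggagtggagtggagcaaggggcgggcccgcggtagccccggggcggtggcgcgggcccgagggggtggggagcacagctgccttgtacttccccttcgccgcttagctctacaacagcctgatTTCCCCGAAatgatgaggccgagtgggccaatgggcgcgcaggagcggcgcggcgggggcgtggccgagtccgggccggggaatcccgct
Irf8, chr8:120736108-120736357, plus strand: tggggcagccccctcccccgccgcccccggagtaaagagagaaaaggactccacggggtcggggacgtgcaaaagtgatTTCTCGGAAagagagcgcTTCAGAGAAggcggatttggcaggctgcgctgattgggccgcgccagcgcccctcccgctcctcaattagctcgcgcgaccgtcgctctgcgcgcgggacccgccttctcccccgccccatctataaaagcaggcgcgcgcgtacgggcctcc
Ifnar2, chr16:91372533-91372782, plus strand: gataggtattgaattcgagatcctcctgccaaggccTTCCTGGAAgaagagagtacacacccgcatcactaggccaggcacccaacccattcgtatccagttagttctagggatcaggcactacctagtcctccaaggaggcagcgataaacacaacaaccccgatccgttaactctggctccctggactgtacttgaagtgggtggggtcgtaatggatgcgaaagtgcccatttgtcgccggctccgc
Irf7, chr7:141266425-141266674, minus strand: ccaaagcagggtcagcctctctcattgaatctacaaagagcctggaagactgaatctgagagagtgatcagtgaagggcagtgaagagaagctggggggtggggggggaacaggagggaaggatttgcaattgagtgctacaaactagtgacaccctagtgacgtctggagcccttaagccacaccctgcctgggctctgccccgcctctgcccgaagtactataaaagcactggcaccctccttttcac
The *Stat2* window held an ISRE match on the minus strand, 222 bases before the start. *Irf1* held a GAS match 90 bases before the start, *Irf8* held 2, at 171 and 153 bases, and *Ifnar2* held 1 at 214 bases. No match lay in the windows of *Irf7*, *Irf9*, *Ifnar1*, *Ifngr1* and *Ifngr2*. *Irf1*, *Irf8* and *Irf9* each had a further window at another start, without a match and not shown. Both *Irf9* windows, which begin at 55603735 and 55604329, lie inside the gene as it is placed below. They thus do not cover the bases before that gene start. Among 32851 windows of the same length, 2.98% held the ISRE letters and 7.02% the GAS letters. A match of letters is a description and not a binding site. In the annotation of the counted build (GENCODE, GRCm38), *Irf7* lies on chromosome 7 from 141262706 to 141266481 and overlaps *Phrf1* on the opposite strand. *Irf9* lies on chromosome 14 from 55603571 to 55610030 and overlaps *Rnf31* on the same strand. *Irf1* overlaps *Gm17334* on the opposite strand, and *Irf8* and *Ifnar2* overlap *Gm20388* and *Gm21970* on the same strand. *Stat2* lies on chromosome 10 from 128270559 to 128292849, and *Irf1* on chromosome 11 from 53770014 to 53778374. Of the receptor genes, 3 lie on chromosome 16, *Ifnar2* from 91372783 to 91405589, *Ifnar1* from 91485238 to 91507441 and *Ifngr2* from 91547072 to 91565623.

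The receptors and the factors were distributed differently over the oligodendrocyte clusters named by the authors. The clusters were Oligo1a to Oligo1c, Oligo2a to Oligo2c, aging-related oligodendrocytes (ARO) and interferon-responsive oligodendrocytes (IRO). They had been drawn with these genes among others, so differences between clusters are descriptions without a test. Levels are given as UMIs per 1000000 UMIs of the cells summed (CPM), averaged over those libraries in which a cluster had 10 cells or more. ARO, IRO and Oligo2c reached this number in the 5 white matter libraries only, so all clusters are compared over these 5 (mean ± SD, n = 5). The interferon-stimulated gene *Ifit3* was highest in IRO, at 228.5 and 147.5 CPM in wild-type and 8.29, 5.15 and 35.5 CPM in *Rag1*-/- libraries 1 to 3. The *Rag1*-/- values rested on 3, 1 and 12 UMIs. In Oligo2c, the next cluster, *Ifit3* was at 1.85 and 32.4 CPM in wild-type and 2.14, 1.24 and 14.3 CPM in *Rag1*-/- libraries, below IRO in each library.

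*Ifnar1* was nearly level over the 8 clusters, from 25.4 ± 5.23 CPM in Oligo1c to 30.7 ± 12.3 in IRO. *Ifngr1* ran from 23.1 ± 4.17 CPM in Oligo2a to 29.7 ± 7.83 in ARO, and *Ifngr2* from 7.88 ± 1.31 CPM in Oligo1a to 12.1 ± 4.51 in IRO. No neighbouring clusters in these orders differed beyond their spread over libraries. *Ifnar2* had a wider range. It was highest in Oligo2a (58.1 ± 11.1 CPM), followed by Oligo2c (54.4 ± 14.8 CPM) and IRO (45.1 ± 11.6 CPM), and lowest in Oligo1b (35.5 ± 6.85 CPM), and neighbours in this order overlapped as well. Over all 8 libraries Oligo2a was at 49.6 ± 15.1 CPM, since the gray matter libraries were lower.

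*Irf7* was highest in IRO. Its mean there was 32.2 ± 15.7 CPM (n = 5), with 47.5 and 43.8 CPM in wild-type white matter libraries 1 and 2 and 24.9, 36.1 and 8.86 CPM in the *Rag1*-/- white matter libraries 1 to 3. Oligo2c followed at 4.32 ± 3.89 CPM, ARO at 1.05 ± 1.17 CPM, and the remaining clusters were below 1 CPM. The 5 IRO values rested on 16, 60, 9, 7 and 3 UMIs, found in 5 of 29, 15 of 123, 5 of 39, 1 of 17 and 2 of 33 cells, so a few cells carried the level of the cluster. In *Rag1*-/- library 2 a single cell held all 7 UMIs. IRO cells held 16 of the 29 *Irf7* UMIs of oligodendrocytes in wild-type white matter library 1, or 55.2% (95% Clopper-Pearson interval 35.7% to 73.6%), while holding 5.65% of all UMIs. The share was 50.8% (41.5% to 60.2%) in wild-type library 2, and 39.1% (19.7% to 61.5%), 58.3% (27.7% to 84.8%) and 15.8% (3.38% to 39.6%) in the *Rag1*-/- libraries 1 to 3. These intervals cover counting error only.

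*Irf9* and *Stat2*, the partners on the ISRE, had the same 3 clusters at the top. *Irf9* was at 36.1 ± 18.5 CPM in IRO, 19.6 ± 11.1 in Oligo2c and 16.1 ± 4.64 in ARO, and at 5.77 to 8.07 CPM in the other clusters. *Stat2* was at 33.4 ± 10.6 CPM in IRO, 19.5 ± 8.12 in Oligo2c and 17.5 ± 4.05 in ARO, and at 11.6 to 14.6 CPM elsewhere. Below these 3 the orders differed, with Oligo1a last for *Irf9* and not for *Stat2*. Oligo2c and ARO did not differ beyond their spread for either gene. In wild-type white matter libraries 1 and 2, *Irf9* stood at 36.9 and 23.1 CPM in Oligo2c, against 16.3, 8.04 and 13.7 CPM in the *Rag1*-/- white matter libraries. In ARO the same libraries had 23.1 and 17.0 CPM against 16.4, 11.0 and 12.9 CPM. Within both clusters the wild-type libraries were the higher ones, without overlap. In IRO the groups overlapped, with 47.5 and 48.2 CPM in wild-type and 52.5, 20.6 and 11.8 CPM in *Rag1*-/- libraries.

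*Irf1* had its highest mean in IRO as well, 19.3 ± 22.8 CPM (n = 5), but 1 library made that mean. Wild-type white matter library 1 was at 59.4 CPM and the others were at 9.49, 16.6, 5.15 and 5.91 CPM. ARO followed at 10.4 ± 4.92 CPM, above the 0.740 to 4.05 CPM of the other clusters. *Irf8* had between 1.78 and 4.31 CPM in every oligodendrocyte cluster.

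**Figure D1:**
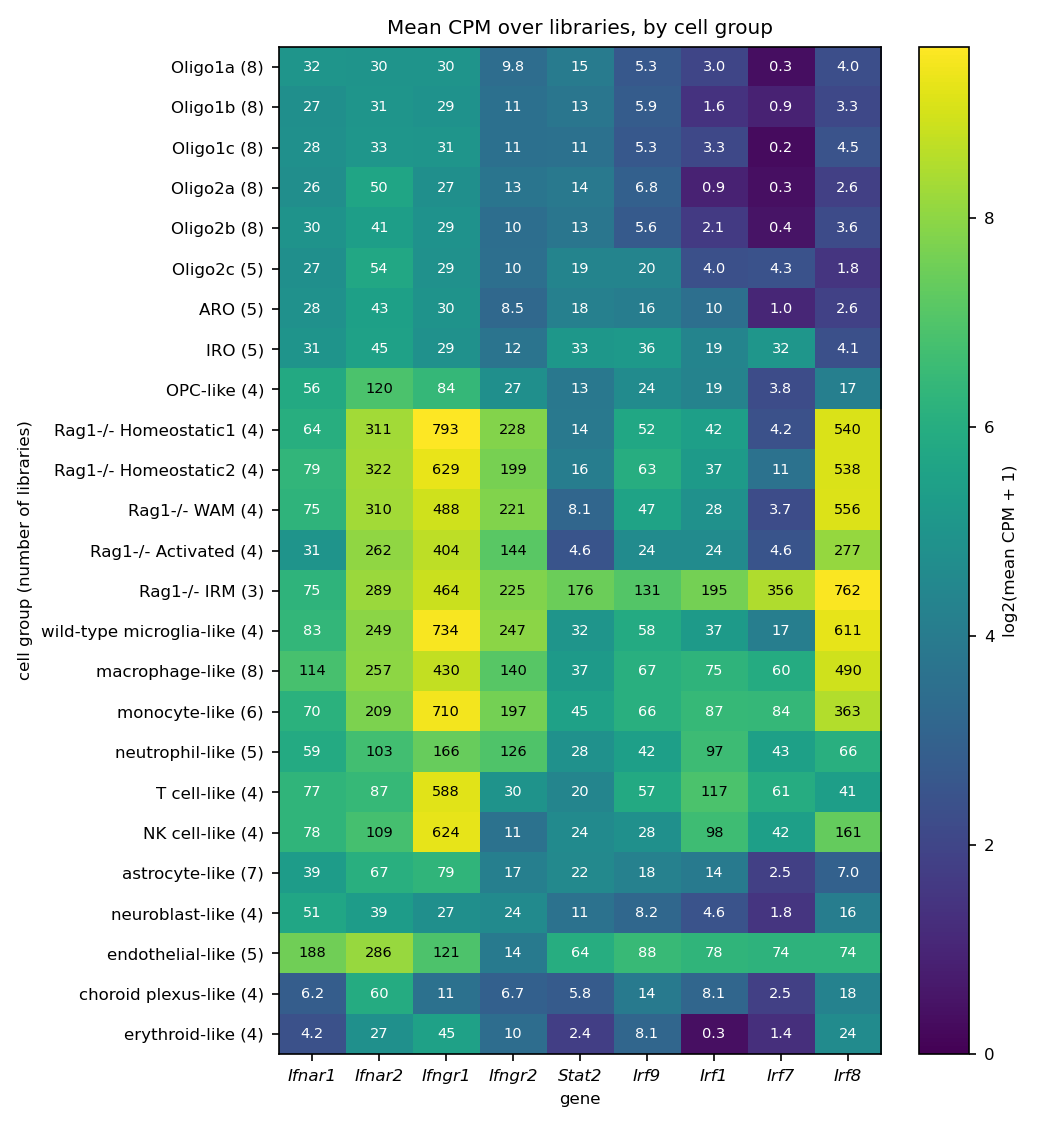
Mean CPM of each gene (columns) in each cell group (rows, with the number of libraries that had at least 10 of its cells), colored by log2(mean CPM + 1) with the CPM printed in each field. The means cover gray and white matter libraries together, and *Irf7* goes from 0.21 CPM in Oligo1c to 32.2 CPM in IRO and 356 CPM in the IRM microglia.

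The receptors that were level in oligodendrocytes were far apart between cell types. *Ifngr1* was at 734 ± 176 CPM in wild-type microglia-like cells (n = 4) and 793 ± 110 CPM in the *Rag1*-/- microglia cluster Homeostatic1 (n = 4), with monocyte-like cells (710 ± 109 CPM, n = 6) and NK cell-like cells (624 ± 160 CPM, n = 4) close to them. T cell-like cells were lower in the wild-type libraries, at 458 CPM in gray matter library 2 and 382 and 353 CPM in white matter, and were at 1160 CPM in 37 cells of *Rag1*-/- white matter library 1. *Ifngr2*, the partner chain, was at 247 ± 12.6 CPM in wild-type microglia-like cells and at 10.7 CPM in NK cell-like and 30.2 CPM in T cell-like cells. *Ifnar1* was highest in endothelial-like cells (188 ± 38.4 CPM, n = 5), where *Ifnar2* stood at 286 ± 98.5 CPM. The ligand gene *Ifng* had 79 UMIs in 188 NK cell-like and 127 UMIs in 431 T cell-like cells, and at most 4 UMIs in any other cell group. NK cell-like cells reached the cell number in *Rag1*-/- libraries only. The *Ifngr2* and *Ifng* values of T cell-like cells include the 37 cells of *Rag1*-/- white matter library 1.

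In the microglia clusters that the authors named in the *Rag1*-/- libraries, the interferon-responsive microglia (IRM) were high for the factors and not for the receptors. These clusters, too, had been drawn with these genes among others, so their differences are descriptions without a test. IRM had 15, 37 and 13 cells in the gray matter library and white matter libraries 1 and 2. White matter library 3 had 9 and was left out. *Irf7* was at 449.5, 317 and 303 CPM in these 3 libraries, whereas Homeostatic1, Homeostatic2, white matter-associated microglia (WAM) and Activated lay between 3.68 and 11.3 CPM on average. IRM cells held 58.6% (46.2% to 70.2%), 39.3% (32.8% to 46.1%) and 40.0% (29.2% to 51.6%) of the *Irf7* UMIs of *Rag1*-/- microglia and 0.879%, 1.23% and 2.19% of all their UMIs. *Stat2* averaged 176 ± 21.6 CPM in IRM against 4.63 to 15.9 CPM in the other clusters, *Irf1* 195 ± 75.4 against 23.7 to 42.1 CPM, and *Irf9* 131 ± 36.4 against 24.4 to 62.8 CPM. *Irf8* was at 762 ± 14.6 CPM in IRM and between 538 and 556 CPM in the homeostatic and WAM clusters. *Ifnar1* was at 75.4 ± 1.61 CPM in IRM and at 75.4 ± 10.4 CPM in WAM, and *Ifngr1* at 464 ± 83.5 against 488 ± 198 CPM. *Ifngr1* was lower in IRM than in the remaining microglia of the same library, at 559, 405 and 427 CPM against 878, 660 and 586 CPM.

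**Figure D2:**
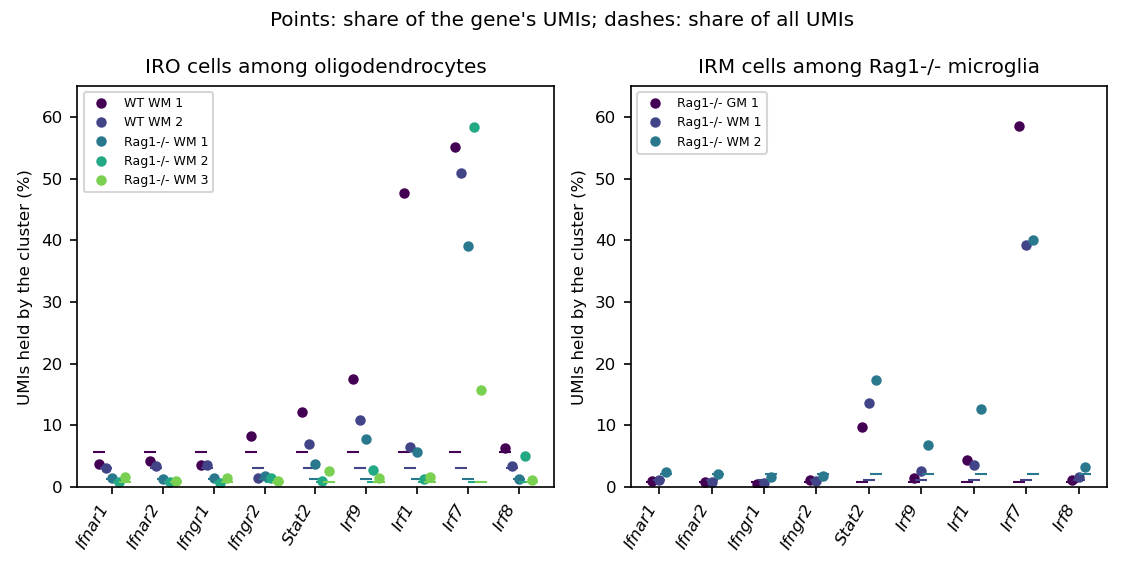
Share of each gene's UMIs (percent, points) held by IRO cells among oligodendrocytes (left) and by IRM cells among *Rag1*-/- microglia (right), 1 point per library with at least 10 such cells, with dashes at the cluster's share of all UMIs. *Irf7* lies between 15.8% and 58.6% in every library shown, while the receptor chains lie nearer to the dashes, with *Ifngr1* below them in IRM.

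The first comparison asked whether the genes differed between tissues in wild-type oligodendrocytes, with the UMIs of all oligodendrocytes of a library summed. *Irf9* rose in white matter. It was at 5.12 and 3.92 CPM in gray matter libraries 1 and 2 and at 15.3 and 13.9 CPM in white matter libraries 1 and 2, without overlap. The difference was 3.40-fold (log2 fold change 1.76 ± 0.23 SE, adjusted p = 0.012, edgeR's quasi-likelihood test with Benjamini-Hochberg adjustment over 13067 genes). *Irf9* was the 1 of the 9 genes called, where 1.00% of all genes tested were called.

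*Irf1* and *Irf7* had folds of the same size or larger with fewer UMIs. *Irf1* was at 1.83 and 1.52 CPM in gray and 7.04 and 4.59 CPM in white matter, from 5, 19, 42 and 201 UMIs (log2 fold change 1.81 ± 0.36, adjusted p = 0.064). *Irf7* was at 1.10 and 0.640 CPM in gray and 4.86 and 2.69 CPM in white matter, from 3, 8, 29 and 118 UMIs (2.24 ± 0.61, adjusted p = 0.19). For both genes the white matter libraries were the higher ones without overlap, and neither passed the test. *Stat2* was at 12.4 and 13.7 CPM in gray and 17.9 and 18.7 CPM in white matter (0.48 ± 0.19, adjusted p = 0.43). *Ifnar2* was at 29.6 and 24.9 CPM in gray and 40.2 and 34.2 CPM in white matter (0.48 ± 0.13, adjusted p = 0.20). *Ifnar1*, *Ifngr1* and *Ifngr2* had log2 fold changes of −0.15, −0.18 and −0.34 with adjusted p-values of 0.78 to 0.92.

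Gray and white matter libraries of a number came from the same mice and the same batch. With the mouse pool as a block 5 of the 9 genes were called, against 10.0% of all genes. These were *Irf9* (log2 fold change 1.76, adjusted p = 2.6e-13), *Irf1* (1.69, 1.1e-04), *Ifnar2* (0.46, 0.0020), *Irf7* (2.10, 0.0064) and *Stat2* (0.48, 0.031), all higher in white matter. This fit left 1 residual degree of freedom. Within wild-type pools 1 and 2, the white over gray ratio was 2.98 and 3.54 for *Irf9*, 3.85 and 3.02 for *Irf1*, 4.43 and 4.21 for *Irf7* and 1.36 and 1.37 for *Ifnar2*. The tissues differed in their clusters. IRO, ARO and Oligo2c each had at most 5 cells in a gray matter library, whereas the wild-type white matter libraries held 29 and 123 IRO, 107 and 886 ARO and 36 and 348 Oligo2c cells. Without the IRO cells, *Irf9* kept its call (1.74, adjusted p = 0.014), and *Irf7* went to 1.40 and *Irf1* to 1.39. Without all 3 clusters, which had been drawn with these genes among others, no member was called. *Irf9* was then at 4.81 and 3.38 CPM in gray and 6.41 and 9.58 CPM in white matter (1.12 ± 0.31, adjusted p = 0.29), or 1.33-fold in pool 1 and 2.84-fold in pool 2. *Irf1* went to 0.62 (adjusted p = 0.91), *Stat2* to 0.15 (0.99) and *Irf7* to −0.18 (1.00), whereas *Ifnar2* stayed at 0.41 (0.48). *Irf9* was no longer called without wild-type gray matter library 2 (1.55, adjusted p = 0.26) or without white matter library 2 (1.83, 0.063).

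**Figure D3:**
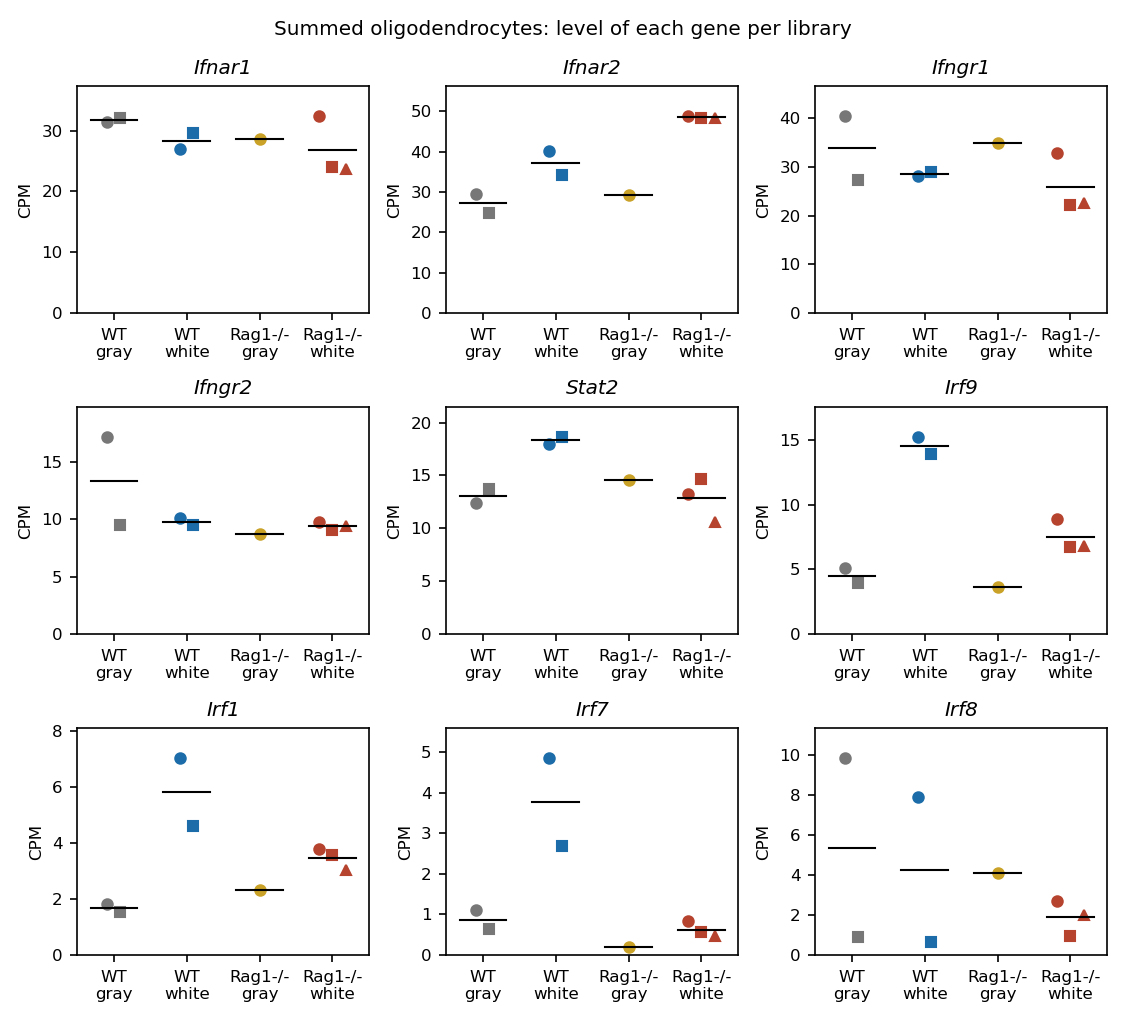
CPM of each gene in the summed oligodendrocytes of each library (y axis, linear from 0), by genotype and tissue, with circles, squares and triangles for libraries 1, 2 and 3 and a line at the group mean. *Irf9* lies at 13.9 and 15.3 CPM in wild-type white matter, above every other library, and *Ifnar2* lies between 48.5 and 49.0 CPM in *Rag1*-/- white matter.

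RNA of other cells in the oligodendrocyte sums was measured with marker lists. The 12 microglial markers together were at 1238 and 132 CPM in wild-type gray matter libraries 1 and 2 and at 806 and 104 CPM in white matter, so they were lower in white matter within each pool. None of the 12 was at 0 in any library, and 0 of the 12 passed the test between wild-type tissues. *Irf8* was higher in pool 1, as these markers were, and lower in white matter within each pool. It was at 9.87 and 7.88 CPM in the gray and white matter of pool 1 and at 0.880 and 0.662 CPM in those of pool 2. The marker UMIs of the oligodendrocyte sums, multiplied by the ratio of *Irf8* to these markers in the microglia-like cells of the same library, came to 93.6% to 185% of the *Irf8* UMIs of these sums. The same calculation gives at most 14.2% for *Irf9*. It gives 45.6% for *Irf1*, 47.8% for *Ifngr1* and 21.5% for *Irf7* in wild-type gray matter library 1, and 35.6% for *Ifngr2* in wild-type white matter library 1. For *Irf7* in white matter, it gives 1.46% to 8.14%. T cell markers were at 1.83 and 0.160 CPM in wild-type gray and 8.72 and 1.94 CPM in white matter, and at 0.025 to 0.234 CPM in the *Rag1*-/- libraries. They were highest in the wild-type white matter libraries, as were *Irf9*, *Irf1*, *Irf7* and *Stat2*, and their part in these results was not tested.

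The second comparison set *Rag1*-/- against wild-type oligodendrocytes of white matter. *Irf7* was lower in *Rag1*-/- mice, at 0.834, 0.563 and 0.471 CPM against 4.86 and 2.69 CPM, without overlap. The difference was 5.66-fold (log2 fold change −2.50 ± 0.46, adjusted p = 0.049, edgeR's quasi-likelihood test), and *Irf7* was the 1 of 9 genes called, where 0.911% of all genes were. It rested on 147 UMIs in the wild-type and 54 in the *Rag1*-/- libraries. *Irf9* was at 8.89, 6.75 and 6.84 CPM against 15.3 and 13.9 CPM (−0.90 ± 0.17, adjusted p = 0.062). *Irf1* was at 3.77, 3.56 and 3.02 CPM against 7.04 and 4.59 CPM (−0.66 ± 0.27, adjusted p = 0.56). *Stat2* was at 13.3, 14.7 and 10.6 CPM against 17.9 and 18.7 CPM (−0.47 ± 0.16, adjusted p = 0.44). These 4 factors were thus lower in every *Rag1*-/- white matter library than in either wild-type one, and 1 of them passed the test. How many of all genes were separated in this way was not counted, so this is a description. *Ifnar2* was separated in the opposite direction. For *Irf8*, at 2.68, 0.938 and 2.01 CPM against 7.88 and 0.662 CPM, the groups overlapped.

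*Ifnar2* went the other way, with 49.0, 48.5 and 48.5 CPM in *Rag1*-/- against 40.2 and 34.2 CPM in wild-type white matter (0.45 ± 0.11, adjusted p = 0.21). In microglia-like cells of the same libraries *Ifnar2* was at 357, 306 and 300 CPM against 286 and 232 CPM (0.33 ± 0.14, adjusted p = 0.39, same test). *Ifnar1*, *Ifngr1* and *Ifngr2* had log2 fold changes of −0.04, −0.10 and 0.00 with standard errors of 0.15 to 0.25. The *Irf7* call depended on the setting. Its adjusted p was 0.0086 with DESeq2, 0.027 without a filter on low counts and 0.049 by library totals, but 0.051 with DESeq2's size factors, 0.054 with the 5 white matter libraries alone 0.28 without IRO cells (−2.11) and 0.87 without IRO, ARO and Oligo2c cells (−1.23), and leaving out 1 library gave 0.047 to 0.30, with a call only when the *Rag1*-/- gray matter library was left out.

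In *Rag1*-/- oligodendrocytes, white matter was set against the lone gray matter library, which was assumed to vary like the other groups. No member was called, where 0.436% of all genes were. *Irf9* was at 3.66 CPM in gray and 8.89, 6.75 and 6.84 CPM in white matter (1.04 ± 0.27, adjusted p = 0.19). *Ifnar2* was at 29.2 CPM in gray and 49.0, 48.5 and 48.5 CPM in white matter (0.75 ± 0.15, adjusted p = 0.085). The gray matter library held 2 UMIs of *Irf7* and the white matter libraries held 23, 12 and 19. With the mouse pool as a block, *Irf9* had 1.27 (adjusted p = 0.0011) and *Ifnar2* 0.73 (2.9e-05), where 5.27% of all genes passed. That fit compares a single gray with a single white matter library, those of pool 1, and takes its spread from the wild-type pools, so it is no replicated test of the *Rag1*-/- tissues. No member passed the test of whether the tissue difference itself differed between genotypes. Of 13067 genes, 0 (0.00%) were called in that test by edgeR, 236 had an unadjusted p under 0.05 and DESeq2 called 3. The lowest unadjusted values were 0.044 for *Stat2* (difference of log2 fold changes 0.66) and 0.045 for *Irf1* (1.22).

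**Figure D4:**
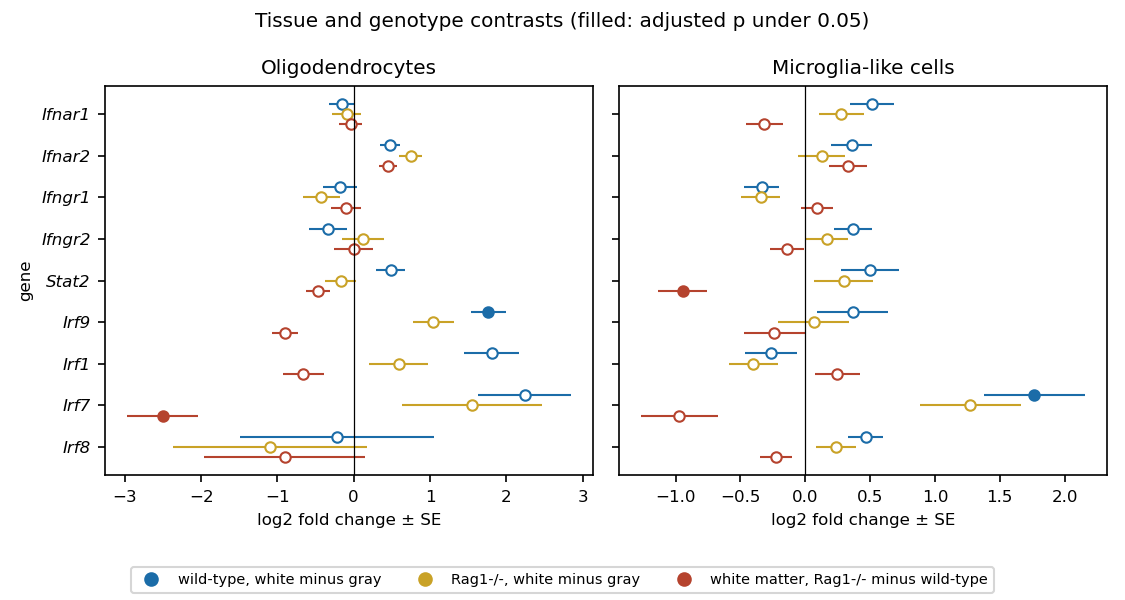
Log2 fold change ± SE of the 9 genes (rows) in the 2 tissue contrasts and the genotype contrast, for summed oligodendrocytes (left) and microglia-like cells (right, on its own scale), with filled points for an adjusted p under 0.05. *Irf9* (1.76) and *Irf7* (−2.50) are filled on the left, and *Irf7* (1.77) and *Stat2* (−0.95) on the right.

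Microglia were compared in the same way, as cells named microglia-like by their marker genes in one clustering of both genotypes. There were 145 to 3346 such cells per library. *Irf7* rose in wild-type white matter. It was at 11.3 and 6.78 CPM in gray and 26.7 and 21.5 CPM in white matter libraries 1 and 2, without overlap, a 3.40-fold difference (log2 fold change 1.77 ± 0.39, adjusted p = 0.012, edgeR's quasi-likelihood test over 11735 genes). It was the 1 member called, where 8.08% of all genes were. *Irf8* was at 528 and 602 CPM in gray and 646 and 669 CPM in white matter (0.47 ± 0.14, adjusted p = 0.053). *Ifngr1* was at 929 and 835 CPM in gray and 577 and 595 CPM in white matter (−0.33 ± 0.14, adjusted p = 0.18). *Irf1* was at 39.9 and 46.2 CPM in gray and 28.1 and 32.6 CPM in white matter (−0.26 ± 0.20, adjusted p = 0.52).

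The scaling of the libraries mattered here. With TMM factors 698 genes were called higher and 250 lower in white matter, and by library totals alone 468 were higher and 859 lower, with a median log2 fold change of all genes of −0.27. By totals, *Ifngr1* was called lower in white matter (−0.59), while *Irf7* remained called (1.52, adjusted p = 0.031). With the mouse pool as a block 6 members were called, against 16.9% of all genes: *Irf7* (1.75), *Ifnar1* (0.53), *Irf8* (0.47), *Ifngr2* (0.36) and *Ifnar2* (0.33) were higher and *Ifngr1* (−0.33) was lower in white matter. The block fit used TMM factors. Over all alternatives the lowest log2 fold change was 0.27 for *Ifnar1*, 0.22 for *Irf8*, 0.12 for *Ifngr2* and 0.10 for *Ifnar2*. In CPM, *Ifnar2* was 1.19-fold in white over gray matter in pool 1 and 0.973-fold in pool 2. The *Irf7* call was lost without wild-type white matter library 1 (adjusted p = 0.066) and without gray matter library 2 (0.23).

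**Figure D5:**
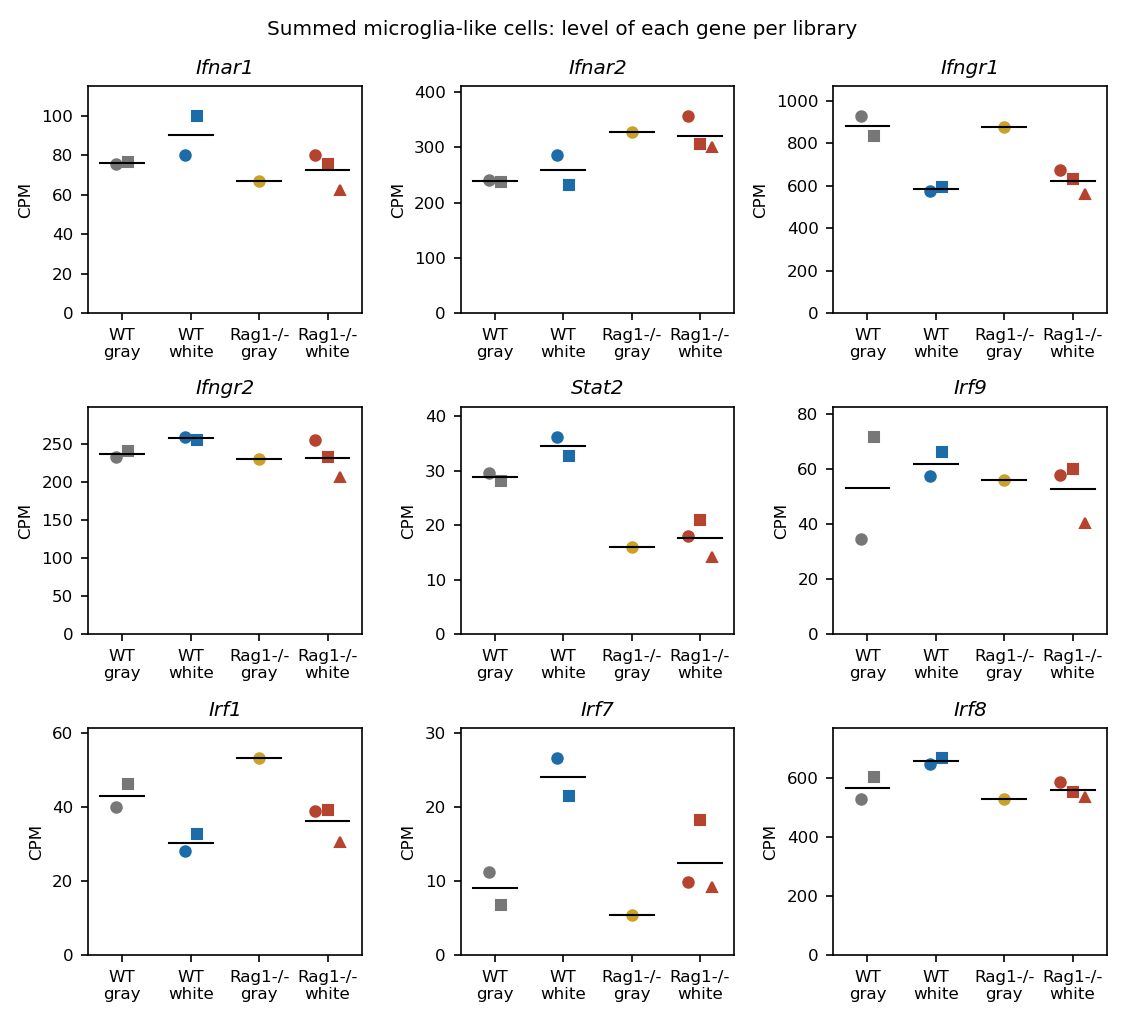
CPM of each gene in the summed microglia-like cells of each library (y axis, linear from 0), by genotype and tissue, with circles, squares and triangles for libraries 1, 2 and 3 and a line at the group mean. *Stat2* lies between 14.2 and 20.9 CPM in the *Rag1*-/- libraries, below the 28.1 to 36.3 CPM of the wild-type libraries.

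Between genotypes, *Stat2* was lower in *Rag1*-/- microglia of white matter, at 17.9, 20.9 and 14.2 CPM against 36.3 and 32.8 CPM (1.93-fold, log2 fold change −0.95 ± 0.19, adjusted p = 0.021). It was the 1 member called, where 1.57% of all genes were. The *Rag1*-/- gray matter library, which was not part of this contrast, had 15.9 CPM against 29.5 and 28.1 CPM in wild-type gray matter. The 8 oligodendrocyte markers in the microglial sums were together at 708, 1027 and 1691 CPM in *Rag1*-/- and 1547 and 1714 CPM in wild-type white matter, and at 403 CPM in *Rag1*-/- and 1624 and 821 CPM in wild-type gray matter, with none at 0. Of these markers, *Cldn11* was called lower in *Rag1*-/- white matter (−1.40, adjusted p = 0.028, edgeR), as it was in oligodendrocytes (−0.67, 0.015). By the same test in microglia-like cells, the T cell marker *Trbc2* was lower (−6.14, 0.012), with at most 15 UMIs in a library. The microglial marker *P2ry12* was higher (0.65, 0.015). The part of these markers in the results was not tested. *Irf7* was at 9.81, 18.3 and 9.14 CPM against 26.7 and 21.5 CPM in white matter (−0.97 ± 0.30, adjusted p = 0.17). *Irf9*, the partner of *Stat2*, was at 57.7, 59.9 and 40.5 CPM against 57.5 and 66.3 CPM (−0.24 ± 0.24, adjusted p = 0.77), and its groups overlapped. *Stat2* was no longer called without wild-type white matter library 1 (adjusted p = 0.16), library 2 (0.13) or *Rag1*-/- white matter library 3 (0.066). Between *Rag1*-/- white and gray matter no member was called (3.82% of all genes), and *Irf7* had 5.47 CPM in gray and 9.81, 18.3 and 9.14 CPM in white matter (1.27 ± 0.39, adjusted p = 0.10). With the block, which again rests on the library pair of pool 1 and the spread of the wild-type pools, *Irf7* had 1.02 (adjusted p = 0.020) and *Ifnar1* 0.44 (0.042), where 10.7% of all genes passed. The author-named clusters differed between these tissues, with 1634 Homeostatic1 cells against 29 of Homeostatic2 and 27 of WAM in the gray matter library, and 785, 1884 and 799 of them in white matter library 1 of the same pool. Within Homeostatic1, *Irf7* was at 2.65 CPM in gray and 3.33, 8.14 and 2.65 CPM in white matter, the lowest white matter value differing from gray by less than 0.01 CPM. No member was called in the test of the tissue effect between genotypes, where 0.00852% of genes were, a single gene.

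A test of the difference between cell types set the tissue effect in microglia-like cells against that in oligodendrocytes of the same libraries. *Irf1* differed. Its log2 fold change of white over gray matter was 1.81 in oligodendrocytes and −0.26 in microglia-like cells when each was fitted alone, and the difference, estimated in a joint fit of both cell types with its own scaling, was −1.96 ± 0.38 (adjusted p = 0.027). Within pools 1 and 2 the white over gray ratio of *Irf1* was 3.85 and 3.02 in oligodendrocytes and 0.703 and 0.706 in microglia-like cells. Without IRO, ARO and Oligo2c cells, the oligodendrocyte ratio was 1.01 in pool 1 and 1.89 in pool 2. The difference between cell types was not tested on those sums. *Irf1* was the 1 member called, where 1.54% of all genes were. *Irf9* had a difference of −1.48 ± 0.34 (adjusted p = 0.062), *Ifnar1* of 0.71 ± 0.17 (adjusted p = 0.065) and *Irf7* of −0.30 ± 0.61 (adjusted p = 0.93). The *Irf1* call was lost without wild-type gray matter library 2 (−1.55, adjusted p = 0.44) and without *Rag1*-/- white matter library 2 (adjusted p = 0.064). For the genotype effect no member was called (0.0146% of all genes).

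The genes around these members were read from lists. In wild-type oligodendrocytes, 19 of 24 type I interferon-stimulated genes passed the filter on low counts, and 4 of them rose in white matter and none fell, where 1.00% of all genes were called, with a median log2 fold change of 1.88 against −0.01 over all genes. They were *Ifi27l2a* (4.12), *Ifit3* (4.19), *Rtp4* (4.12) and *Oasl2* (3.86). Of 14 interferon-γ-induced genes tested, 0 were called by edgeR although their median was 2.28. *Stat3*, another factor of the STAT family, rose (1.33, adjusted p = 0.0067) as 1 of 7 kinases and other STATs, and *Socs3*, a feedback inhibitor of STAT3 signaling, went from 1 and 3 UMIs in gray to 113 and 1207 UMIs in white matter (adjusted p = 0.012). None of 6 other interferon regulatory factors, 15 genes of nucleic acid sensing or 3 other receptors of the family was called. No interferon ligand of the 11 listed passed the filter.

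In white matter of *Rag1*-/- mice, 3 of the 19 interferon-stimulated genes fell in oligodendrocytes and none rose, where 0.911% of all genes were called (*Oasl2* −4.56, *Ifit3* −3.39 and *Ifi27l2a* −1.80), with a median of −2.01. *Ifit3* went from 15.4 and 9.31 CPM to 0.979, 0.422 and 1.78 CPM. The kinases, other STATs and inhibitors had no call in this comparison. Between *Rag1*-/- tissues, *Stat3* rose in white matter (1.14), as did *Socs3* (0 UMIs in gray, which allows up to 3, and 280, 195 and 981 UMIs in white matter), and 0 of 19 interferon-stimulated genes were called (0.436% of all genes). *Stat3* was thus at 49.7 and 49.4 CPM in wild-type gray, 116 and 130 in wild-type white, 37.9 in *Rag1*-/- gray and 75.1 to 89.9 CPM in *Rag1*-/- white matter.

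In wild-type microglia-like cells, 6 of 21 interferon-stimulated genes rose in white matter and none fell, where 8.08% of all genes were called, among them *Lgals3bp* (1.91), *Ifi27l2a* (3.03), *Oasl2* (1.89) and *Ifit2* (2.32). Of 21 interferon-γ-induced genes, 4 rose and 1 fell, in the same contrast in which the scaling set the split of higher and lower calls. *Gbp7*, a guanylate-binding protein, fell (−1.34), and *Cd274*, which codes for the checkpoint ligand PD-L1, rose (1.52). The chemokine gene *Cxcl10* had 0 UMIs in either wild-type gray matter library and 46 and 255 (31.47 and 48.03 CPM) in wild-type white matter. It was not absent from *Rag1*-/- gray matter, at 31.96 CPM, against 14.72, 69.64 and 9.84 CPM in *Rag1*-/- white matter libraries 1 to 3. *Usp18*, an inhibitor of type I interferon signaling, rose in wild-type white matter (1.91), and so did the nucleic acid sensor *Zbp1* (2.31). In *Rag1*-/- white matter, 2 of the 21 interferon-stimulated genes fell in microglia-like cells (*Lgals3bp* −1.42 and *Oasl2* −1.63) and none rose, where 1.57% of all genes were called. T cell markers in the microglial sums were at 28.1 and 6.97 CPM in wild-type white matter, 2.60 and 1.25 CPM in gray matter, and at most 0.422 CPM in *Rag1*-/- libraries, and their part in these results was not tested.

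Over 25 cell groups, the pattern of each member was compared with 13094 genes by Pearson's r of log2(CPM + 1). The groups share libraries and depth, so r is a description. *Irf7* was most like *Usp18* (r = 0.919) and *Oas1a* (0.915), *Irf9* like *Rtp4* (0.954), *Igtp* (0.932) and *Bst2* (0.930), and *Irf1* like *Tapbp* (0.945), *H2-K1* (0.940) and *Ddx58* (0.940). *Stat2* had lower values, with *Adar* (0.801) and *Usp25* (0.777). *Irf8* was most like *Irf5* (0.987), *Pycard* (0.982) and *Gm42031* (0.975). *Ifngr1* was most like *Trpv2* (0.979) and *Ifngr2* like *Cd300a* (0.979), whereas *Ifnar1* was nearest to *Zc3h7a* (0.945) and *Ifnar2* to *Naip5* (0.944).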

How the data were processed

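Single-cell libraries of 8 samples were used. UMI counts per gene and cell, made by the authors with Cell Ranger, were deposited as whole numbers without normalization (submitters' processing notes: Cell Ranger 4, mm10; the methods name a version of its own for the wild-type libraries and for each *Rag1*-/- experiment). The study's methods describe filters on genes per cell, cells per gene, mitochondrial share and UMIs that differed between experiments, and removal of a small *Rag1*-/- cluster with microglial markers. The oligodendrocyte table and its cluster names are the authors', and so are the cluster names of *Rag1*-/- microglia, of which 7421 of 7430 were found among all cells. Left out were 8171 cells in the microglia table, from 4 libraries that belong to a different series. The 2 genes that the authors removed from the oligodendrocyte table were left out throughout. Other cells were clustered (scanpy 1.11.5, 30 clusters) and named from at least 3 markers. 2492 cells stayed unnamed, and no doublet caller was run.

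UMIs were summed per library and cell type and fitted with edgeR 4.0.16 (filterByExpr, TMM, two-sided quasi-likelihood F test, 4 groups of tissue and genotype over all 8 libraries, Benjamini-Hochberg adjustment over all genes tested, threshold 0.05). Standard errors (SE) were derived from the F statistic, as the log2 fold change over its square root. Labels do not say that libraries of a group are separate mice beyond the pools described, so p-values measure the spread between libraries. Gray and white matter libraries of a wild-type pool deviated together (r = 0.409 in oligodendrocytes and 0.140 in microglia-like cells, across genes). Pool and batch coincide in wild-type, so this r does not tell a mouse effect from a batch effect. The pairing comes from the study's sample table, and the pool was a block in an alternative. On simulated counts for the tissue contrast of wild-type oligodendrocytes, 44.4% of changes of 1 and 79.6% of changes of 2 on the log2 scale were recovered, with 10 unchanged genes called among 12745. Alternatives were DESeq2 1.42.0, its size factors, no filter, leaving out each library, the pool block, subsets of libraries and, chosen after seeing the data, scaling by totals, sums without the 3 oligodendrocyte clusters nearly absent from gray matter, and a further cluster of 1210 shallow cells counted as microglia. Members and lists were chosen with earlier results of these data known. Named genes are the 9 members, up to 4 called genes of a list with the lowest adjusted p, and the 3 genes most like each member. 1 gene that this rule names is not reported here. Oligodendrocyte clusters were compared over the white matter libraries, a choice made after seeing the data. Promoter windows and motif letters come from RefSeq sequences.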

Additional observations from a re-analysis of the deposited data

Results flagged for a closer look

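The tissue effect of 6 genes of the members or their lists differed between microglia-like cells and oligodendrocytes of the same wild-type libraries, by a test of the difference itself in edgeR with Benjamini-Hochberg adjustment. Over all genes, 211 of 13674 (1.54%) were called in that test. *Irf1* differed by −1.96 on the log2 scale (adjusted p = 0.027), since it was higher in white matter in oligodendrocytes of both pools and lower in microglia-like cells of both. In oligodendrocytes without IRO, ARO and Oligo2c cells, its white over gray ratio was 1.01 in pool 1 and 1.89 in pool 2. *Stat3* differed by −1.32 (adjusted p = 0.0035), with 118.9 and 96.6 CPM in gray and 77.3 and 93.6 CPM in white matter microglia-like cells. *Socs3* differed by −6.30 (adjusted p = 0.0024), with 17.4 and 12.05 CPM in gray and 13.7 and 12.1 CPM in white matter microglia-like cells. *Gbp7* differed by −3.78 (adjusted p = 0.023), from 5 and 6 UMIs in gray and 60 and 114 UMIs in white matter oligodendrocytes. *Irf2bpl*, a relative of the IRF2-binding proteins, differed by −0.85 (adjusted p = 0.048). *Ifit2* differed by 2.30 (adjusted p = 0.038), with 26.8 to 31.1 CPM in the oligodendrocytes of the 4 wild-type libraries.

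For the genotype effect in white matter, *Oasl2* differed by 2.89 between the cell types (adjusted p = 0.049, edgeR), where 2 of 13674 genes (0.0146%) were called. It was at 5.36 and 2.83 CPM in wild-type and 0.109 to 0.188 CPM in *Rag1*-/- oligodendrocytes, and at 69.8 and 31.5 CPM against 10.1 to 21.6 CPM in microglia-like cells.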

How the results depend on the processing

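The numbers of members and genes called moved with the processing. Here and in the next paragraph, some settings are given with members only, and the genes called in the same fit are left out. Such a count of members describes the setting and is no result about the members. For wild-type oligodendrocytes between tissues (1 member and 131 genes in the main analysis), DESeq2 called 2 members and 282 genes, no filter 2 members, the pool block 5 members and 1310 genes, the 4 wild-type libraries alone 62 genes, and the sums without IRO, ARO and Oligo2c cells 0 members and 39 genes, and leaving out 1 library gave 0 to 1 members and 2 to 142 genes. For genotype in oligodendrocytes (1 member), DESeq2's size factors, the 5 white matter libraries alone, the sums without IRO cells and those without IRO, ARO and Oligo2c cells gave 0 members, no filter gave 2, DESeq2 gave 195 genes in place of 119, and leaving out 1 library gave 0 to 1 members. For *Rag1*-/- oligodendrocytes between tissues (0 members, 57 genes), DESeq2 called 1 member and 208 genes, no filter 140 genes, the block 2 members and 688 genes, and leaving out 1 library 16 to 264 genes. In the test of the tissue effect between genotypes, DESeq2 called 3 genes and leaving out 1 library gave 0 to 4.

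For wild-type microglia-like cells between tissues (1 member, 948 genes), DESeq2, library totals and the 4 libraries alone gave 2 members, no filter gave 3, the block gave 6 members and 1986 genes, and leaving out 1 library gave 0 to 3 members and 426 to 1178 genes. For genotype (1 member, 184 genes), no filter gave 2 members and 544 genes and leaving out 1 library 0 to 2 members and 106 to 321 genes. For *Rag1*-/- tissues (0 members, 448 genes), no filter gave 1 member and 921 genes, the block 2 members and 1252 genes, and leaving out 1 library 310 to 749 genes. The genotype test of the tissue effect (1 gene) gave 34 genes without a filter, 0 with the shallow cells and 0 to 13 with 1 library left out. For the difference between cell types by tissue (1 member, 211 genes), DESeq2 gave 404 genes, library totals 2 members, no filter 2 members and 332 genes, and leaving out 1 library 0 to 2 members and 4 to 298 genes. By genotype (2 genes), DESeq2's size factors and library totals gave 1 gene each, no filter 5, and leaving out 1 library 0 to 5. The pool block was run for the tissue contrasts within a genotype only, and for *Rag1*-/- it rests on 1 pair of libraries. In these contrasts it changed no call of a member beyond those given with each comparison. The cause of these shifts was not tested.

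Of the values of single members under an alternative, 1123 kept direction and side of the threshold, 21 lost the threshold, 31 gained it, 47 changed sign and 2 levels moved by more than their spread over libraries, *Irf8* (786 CPM) and *Ifnar1* (77.1 CPM) in IRM as means over cells. None of the 47 had been called. *Irf8* in oligodendrocytes changed sign most, with −2.66 to 2.03 between wild-type tissues, −1.997 to 1.55 between genotypes and −1.56 to 3.13 for the genotype test of the tissue effect when 1 library was left out. Its difference between cell types ran from −0.99 to 2.78 by tissue and from −1.78 to 1.90 by genotype, with −0.051 by DESeq2's size factors and −0.0069 without a filter. The other changes of sign were near 0. Without IRO, ARO and Oligo2c cells, *Irf7* had −0.18 between wild-type tissues and *Ifnar1* 0.0040 between genotypes. Leaving out 1 library gave −0.45 to 0.061 for *Ifngr1* and −0.77 to 0.021 for *Ifngr2* between wild-type oligodendrocytes, −0.19 to 0.040 for *Ifnar1* and −0.046 to 0.031 for *Ifngr2* between genotypes (0.0044 by DESeq2's size factors and 0.0025 by DESeq2), and −0.14 to 0.090 for *Ifnar1* and −0.015 to 0.48 for *Ifngr1* in the genotype test of the tissue effect. The block gave 0.17 for *Ifnar1* between *Rag1*-/- oligodendrocytes. In microglia-like cells, *Irf9* between *Rag1*-/- tissues had −0.039 to 0.22 with 1 library left out and −0.093 by library totals, where *Ifnar2* had −0.031. In the genotype test, *Irf9* ran from −0.035 to 1.06 and *Ifngr1* from −0.058 to 0.086, with −0.00015 by DESeq2's size factors, −0.089 by totals and −0.013 with the shallow cells. For the difference between cell types, *Stat2* ran from −0.067 to 0.14 (−0.22 by totals), *Ifnar2* from −0.22 to 0.062 and *Ifngr1* from −0.33 to 0.13 by tissue, and *Ifnar2* from −0.21 to 0.0027 by genotype.

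The low genes rested on few UMIs, and the part of depth in their calls was not tested. *Irf7* had 2 to 118 UMIs and *Irf1* 5 to 201 in the oligodendrocytes of a library. In simulations of the wild-type tissue and white matter genotype contrasts, 43.3% to 61.6% of changes of 1 on the log2 scale were recovered. Contrasts with the lone *Rag1*-/- gray matter library were not simulated.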

Other observations

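The T cell-like cluster also held cells of *Rag1*-/- mice. White matter library 1 had 37 of them, and the other *Rag1*-/- libraries had 2, 1 and 2. In these 37 cells *Ifngr1* was at 1160 CPM and *Irf1* at 209 CPM, whereas the T cell-like cells of wild-type white matter libraries 1 and 2 had 382 and 353 CPM of *Ifngr1* and 69.6 and 97.4 CPM of *Irf1*. *Irf7* had 1 UMI in the *Rag1*-/- cells and stood at 121 and 64.9 CPM in the wild-type cells. These are values of single libraries without a test.

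Among cells outside the glia, endothelial-like cells of wild-type gray matter library 2 had 189 CPM of *Irf7*, 168 CPM of *Irf9* and 137 CPM of *Stat2*, from 18, 16 and 13 UMIs in 24 cells. In wild-type white matter library 2 the 16 endothelial-like cells held 7, 6 and 7 UMIs of these genes, and *Irf7* was at 20.8 to 45.0 CPM in 3 *Rag1*-/- libraries and at 0 UMIs in the 6 such cells of *Rag1*-/- white matter library 1. Macrophage-like cells had 104 and 140 CPM of *Irf7* in wild-type white matter, 0 and 20.6 CPM in wild-type gray matter and 31.6 to 68.0 CPM in the *Rag1*-/- libraries, the 0 standing for 14 cells.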
